A study of Mus musculus with 36 samples.

Results

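The 10 genes described here report glucocorticoid and metal signalling in liver and were read across 3 diets: the receptor gene Nr3c1, its targets Fkbp5, Tsc22d3, Sgk1, Zbtb16 and Tat, the stress and growth regulators Ddit4 and Cdkn1a, and the metallothioneins Mt1 and Mt2. They were listed by name, as a readout of stress and time of day, with earlier results of these data known, and the listing rule itself uses no measured value. All 10 of the 53715 gene identifiers in the count table were found, and all 10 were among the 14068 genes that passed the filter on low counts. The livers came from male C57BL/6 mice aged 10 weeks, and the count table holds 12 libraries per diet, each with its own mouse number, where the labels give 11 to 12 mice per group. Control mice ate AIN93G, a purified rodent diet, and the other mice ate AIN93G with 10% red tomato powder (Red) or 10% tangerine tomato powder (Tangerine), from 4 weeks of age and for 6 weeks. No other treatment or allele was named for any group. The hour of tissue collection and the handling before it are not given in the sources used here.

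Glucocorticoids, chiefly corticosterone in mice, enter cells and bind the glucocorticoid receptor, which then acts as a transcription factor at response elements near its target genes. Their blood level follows the day and climbs with fasting and stress, so liver target transcripts differ with the hour and with the state of the animal. Metallothioneins are small cysteine-rich proteins that bind zinc and copper, and their genes respond both to metals, through the factor MTF1 at metal response elements, and to glucocorticoids. In whole liver RNA, fewer cells of a type and less RNA per cell cannot be told apart.

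The libraries held 21290169 to 33810573 counts each, and abundance is given as CPM, the gene's counts scaled to a common library total. The 5 hepatocyte markers (Alb, Apoa1, Ttr, Serpina1c and Cps1) summed to between 81752 and 120804 CPM in every library. Markers of other tissues stood out in a pair of libraries: T cell markers summed to 159 CPM in Red mouse 186, against at most 3.70 CPM in any Control liver, and pancreas markers to 11.4 CPM in Tangerine mouse 216, against at most 0.0709 CPM. Adipose markers also stood out in Red mouse 186, at 9.85 CPM against at most 0.2 CPM in any Control liver. That mouse had the lowest Red values of Tsc22d3 (57.7 CPM) and Zbtb16 (5.80 CPM), both of which lymphocytes also express. The adrenal markers, which would show tissue of the gland that makes the hormone, summed to 1.31 to 2.67 CPM, and Cyp11b1, the enzyme of the last step to corticosterone, had 0 counts everywhere.

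Per kilobase of the principal transcript, the mean level over all 36 livers was highest for Tat, at 855 ± 325 CPM per kb (SD, n = 36), followed by Tsc22d3 at 78.0 ± 40.2. Mt1 (13.1 ± 7.18), Nr3c1 (13.0 ± 2.01), Fkbp5 (9.63 ± 6.99) and Sgk1 (9.09 ± 2.89) lay within each other's spread on this scale of CPM per kb. Ddit4 (5.01 ± 4.28), Zbtb16 (4.35 ± 3.64) and Cdkn1a (2.42 ± 3.38 CPM per kb) came next and also overlapped. Mt2 was last, at 0.656 ± 0.657 CPM per kb, or a median of 7 counts and a maximum of 37 counts per library. The length of Mt2 that could take counts is uncertain. Of its 905 bases, 749 are shared with the antisense gene Gm45774, whose highest count was 2, and 17.2% of the gene is covered by no other gene. Across the table, 1237 of 1246 protein-coding genes lying wholly inside the span of another gene (99.3%) had 0 counts in all libraries, against 22.8% of the 11931 with no overlap. The level of Mt2 is therefore not comparable with that of Mt1, while comparisons of Mt2 between diets use the same bases in every library. The part of the overlap in the low Mt2 counts was not tested. Counting only genes that are rows of the count table, Fkbp5 shares 288 bases with another gene and the other 8 members share none. The annotation also places further genes over Fkbp5 and 1 over Cdkn1a.

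**Figure D1:**
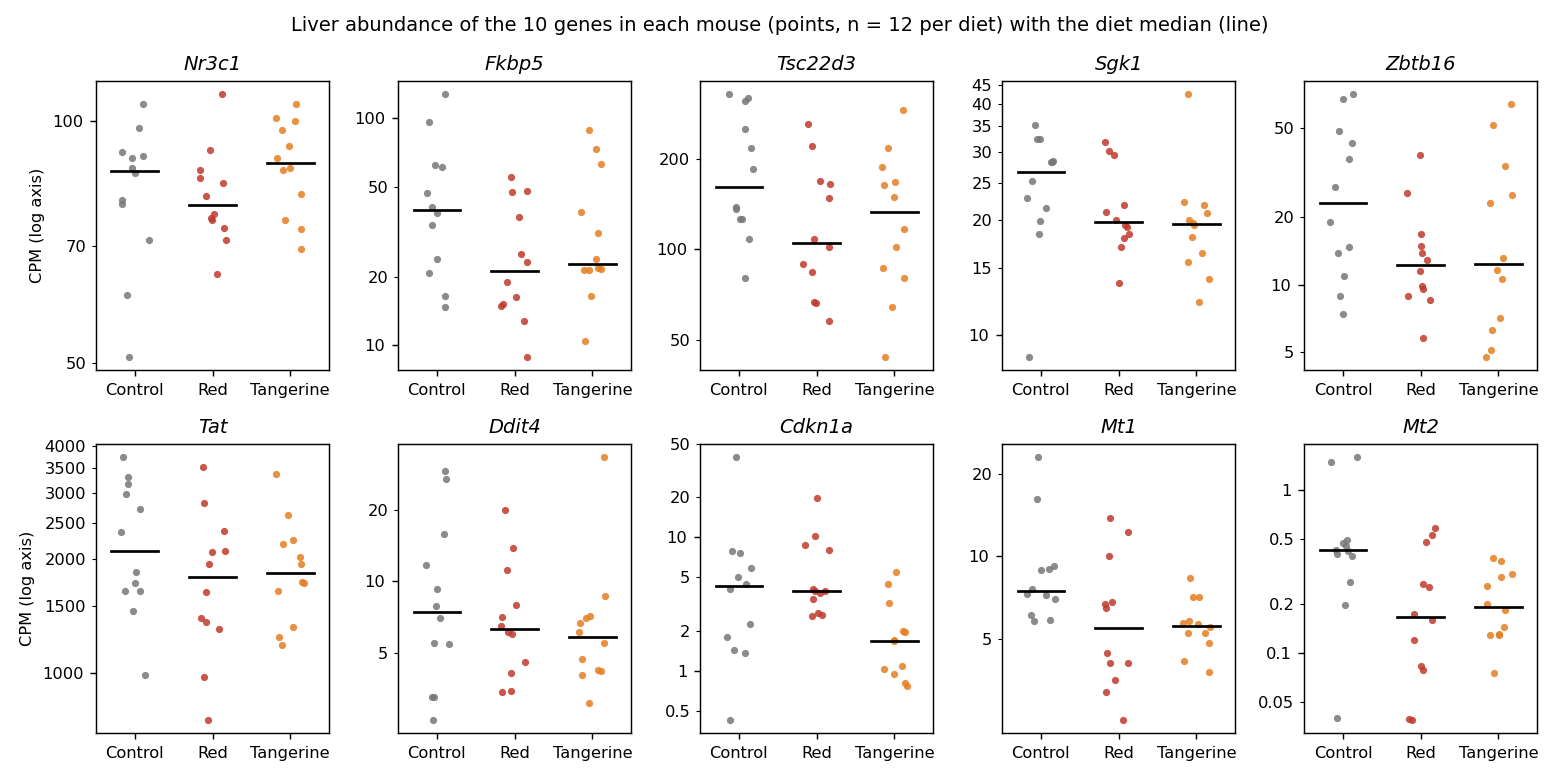
Abundance of each gene in CPM (logarithmic axis, different for each gene) in the 12 livers of each diet, where each point is 1 mouse and the line is the diet median. The diets overlap for all 10 genes, and single mice stand apart for Cdkn1a (a Control liver at 40.1 CPM) and for Mt1 and Mt2 (Control livers at 16.1 and 23.0 CPM of Mt1).

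None of the 10 genes passed the test between any diets. Diets were compared with edgeR's quasi-likelihood test, with p-values adjusted by the Benjamini-Hochberg method over all 14068 genes and a threshold of 0.05. For Red against Control, 0 of 10 members passed, where 0.149% of all tested genes did, and for Tangerine against Control it was again 0 of 10, against 0.0142%. For Tangerine against Red it was 0 of 10, against 1.71%, and for both tomato diets together against Control 0 of 10, against 0.00711%. DESeq2 also called 0 members in each comparison, but it gave Mt2 no adjusted p for Red against Control (DESeq2 unadjusted p 0.00307). For that comparison limma-voom with sample weights called 1 member, Mt2. The comparisons with Control share the 12 Control livers, so like signs in them are not separate results.

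At an unadjusted p under 0.05 in the edgeR fit, 5 members were lower in Red than in Control (Fkbp5, Tsc22d3, Zbtb16, Mt1 and Mt2), where 6.63% of all tested genes were lower at that limit. For Tangerine against Control, 3 members were lower at that limit (Cdkn1a, Mt1 and Mt2), as were 3.16% of all genes, and for Tangerine against Red 1 was (Cdkn1a), as were 8.52%. For both diets together 6 members were lower, as were 3.72% of all genes. The fitted difference was below 0 for 10 of 10 members in Red against Control and for 9 of 10 in Tangerine against Control, with medians of -0.49 and -0.46 (log2), and for 4 of 10 in Tangerine against Red, with a median of 0.03. With surrogate variables in the fit, 3 of 10 were above 0 in Red against Control (Nr3c1 at 0.01, Ddit4 at 0.22 and Cdkn1a at 0.77), Tsc22d3 was at -0.05 and Tat at -0.04. Over all tested genes 48.5%, 44.6% and 48.5% had a difference above 0 in these comparisons. The members vary together from mouse to mouse (the plot of correlations), so they are not 10 separate observations.

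**Figure D2:**
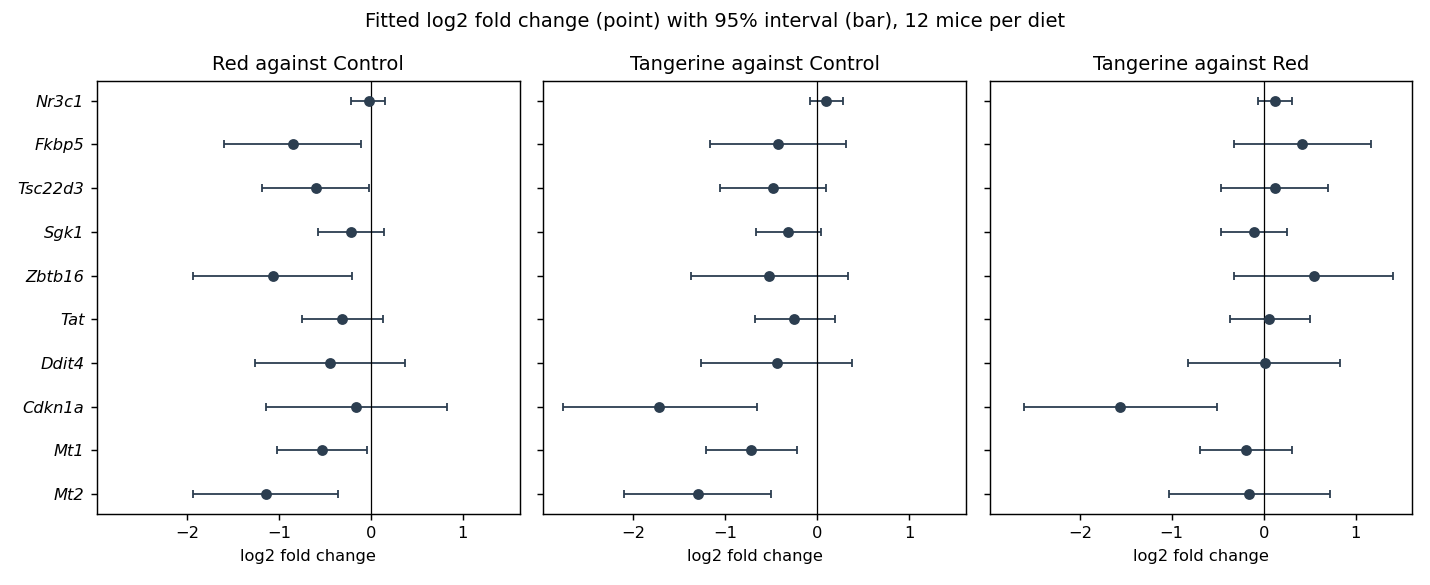
Fitted log2 fold change of each gene (point) with its 95% interval (bar) in the 3 comparisons between diets, 12 mice per diet. Nr3c1 has the narrowest intervals, all reaching across 0, and the interval of Cdkn1a lies below 0 in both comparisons with Tangerine.

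The receptor gene Nr3c1 was the steadiest of the 10. Its abundance was 50.9, 86.8 and 105 CPM (lowest, median, highest) in Control, 64.6, 78.6 and 108 CPM in Red, and 69.4, 88.7 and 105 CPM in Tangerine, and the diets overlapped over nearly their whole range. The log2 fold change was -0.02 for Red against Control (95% interval -0.21 to 0.16), 0.10 for Tangerine against Control (-0.08 to 0.28) and 0.12 for Tangerine against Red (-0.06 to 0.31). Among mice of 1 diet its log2 CPM had an SD of 0.23, at the 47.3rd percentile of tested genes, whose median was 0.24. All the other members varied more: their within-diet SDs ran from 0.46 for Sgk1, at the 85.7th percentile, to 1.19 for Cdkn1a, at the 99.8th.

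Fkbp5 encodes a cochaperone that holds back the receptor and is itself induced by it, as a feedback. It measured 14.7, 39.5 and 128 CPM in Control, 8.84, 21.1 and 55.0 CPM in Red, and 10.4, 22.8 and 88.6 CPM in Tangerine (lowest, median, highest). In each tomato diet 9 of 12 livers were below the Control median, with 2 Red livers and 1 Tangerine liver below every Control. The difference was -0.85 (log2, SE 0.37) for Red against Control, with an adjusted p of 0.305 by edgeR's quasi-likelihood test. It was -0.43 (SE 0.36) for Tangerine against Control.

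Zbtb16, a zinc finger transcription repressor induced by glucocorticoids in many cells, ran close to Fkbp5. Its lowest, median and highest values were 7.40, 23.2 and 70.7 CPM in Control, 5.80, 12.2 and 37.9 CPM in Red, and 4.75, 12.4 and 64.2 CPM in Tangerine. The Red difference from Control was -1.06 (log2, SE 0.43), with an adjusted edgeR quasi-likelihood p of 0.269, and 10 of 12 Red livers were below the Control median. In Tangerine, 8 of 12 were below it, 4 of them below every Control, and the difference was -0.52. Without Control mice 137 and 182 the Red difference became -0.56 for Fkbp5 and -0.80 for Zbtb16, and the Tangerine difference -0.13 and -0.25. Without Tangerine mouse 216 the Zbtb16 difference in Tangerine was -0.81. Against Red, Tangerine was higher by 0.42 for Fkbp5 and 0.55 for Zbtb16, and by 0.22 and 0.26 without that mouse.

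Tsc22d3 encodes GILZ, a leucine zipper protein that carries much of the anti-inflammatory action of glucocorticoids. It measured 80.3, 161 and 329 CPM in Control, 57.7, 105 and 261 CPM in Red, and 43.8, 134 and 292 CPM in Tangerine (lowest, median, highest). In Red, 3 of 12 livers lay below every Control, and in Tangerine 2 of 12. The difference from Control was -0.60 (log2, SE 0.29, edgeR adjusted p 0.361) in Red and -0.48 (edgeR adjusted p 0.954) in Tangerine.

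Tat, tyrosine aminotransferase, is the classical glucocorticoid-induced enzyme of liver and breaks down tyrosine. It was the most abundant member, at 983, 2106 and 3737 CPM in Control, 750, 1789 and 3509 CPM in Red, and 1185, 1837 and 3372 CPM in Tangerine. The diets overlapped almost fully, with differences from Control of -0.31 (log2, SE 0.22) in Red and -0.25 in Tangerine. Sgk1, a kinase that regulates ion transport, measured 8.76, 26.7 and 35.3 CPM in Control, 13.7, 19.7 and 31.9 CPM in Red, and 12.2, 19.5 and 42.5 CPM in Tangerine. The lowest of all 36 Sgk1 values was a Control liver, although 9 of 12 Red and 11 of 12 Tangerine livers were below the Control median. Its differences were -0.21 in Red and -0.32 in Tangerine.

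Ddit4 encodes REDD1, an inhibitor of the growth kinase mTORC1 that responds to glucocorticoids and to cell stress. It measured 2.6, 7.39 and 29.2 CPM in Control, 3.39, 6.30 and 20 CPM in Red, and 3.06, 5.80 and 33.5 CPM in Tangerine. Each diet held 1 or 2 livers far above its median: Control mice 122 and 188 (29.2 and 27.1 CPM), Red mouse 204 (20 CPM) and Tangerine mouse 128 (33.5 CPM). The difference from Control was -0.44 (log2) in both Red and Tangerine, and 0.01 between them. Without Control mouse 188 it was -0.23 in Red and -0.22 in Tangerine. No fit left out Control mouse 122, Red mouse 204 or Tangerine mouse 128, whose Ddit4 was the highest of all livers.

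Cdkn1a encodes p21, an inhibitor of cyclin-dependent kinases that answers to p53, to glucocorticoids and to the liver clock. It measured 0.429, 4.30 and 40.1 CPM in Control, 2.56, 3.96 and 19.8 CPM in Red, and 0.774, 1.68 and 5.51 CPM in Tangerine (lowest, median, highest). The highest value among the 36 livers was 93.5 times the lowest, and both were Control livers. The Tangerine difference was -1.72 (log2, SE 0.52, 95% interval -2.77 to -0.66) against Control and -1.56 (SE 0.52, -2.61 to -0.51) against Red, with adjusted p of 0.587 and 0.118 by edgeR's quasi-likelihood test.

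The Cdkn1a differences from Control depended on 1 liver. Without Control mouse 188, which held 40.1 CPM, Tangerine against Control went from -1.72 to -0.87 and Red against Control from -0.16 to 0.69. Tangerine against Red holds no Control liver, so its unchanged estimate of -1.56 could not test dependence on that mouse. Its adjusted edgeR p became 0.0388 in that fit. A Control liver can alter this p only through what the diets share: the dispersion estimate, the scaling and the set of tested genes. The Tangerine against Red difference also passed with surrogate variables in the fit (-1.85, edgeR adjusted p 0.0203). In a fit to those diets alone it passed too (-1.56, edgeR adjusted p 0.0333). With the clock measure described below as a covariate, the same difference was -0.22, with an adjusted edgeR p of 0.857.

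The metallothioneins had the smallest unadjusted p-values against Control when the tomato diets were pooled. Mt1 measured 5.78, 7.45 and 23.0 CPM in Control, 2.53, 5.45 and 13.8 CPM in Red, and 3.78, 5.58 and 8.32 CPM in Tangerine. Of the 12 livers per diet, 6 in Red and 8 in Tangerine lay below every Control liver. The difference from Control was -0.53 (log2, SE 0.24) in Red, -0.72 (SE 0.24) in Tangerine and -0.62 (SE 0.21) in both, with an adjusted edgeR p of 0.545 for the last.

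Mt2 measured 0.0400, 0.427 and 1.60 CPM in Control, 0.0390, 0.166 and 0.584 CPM in Red, and 0.0750, 0.191 and 0.383 CPM in Tangerine, or median counts of 12, 4.5 and 5.5 per library. All 12 Tangerine and 9 of 12 Red livers were below the Control median, but 1 Control liver was as low as the lowest Red livers. The difference from Control was -1.14 (log2, SE 0.39) in Red, -1.30 (SE 0.40) in Tangerine and -1.22 (SE 0.33, 95% interval -1.89 to -0.56) in both, with an adjusted edgeR p of 0.314 for the last. Red and Tangerine differed by -0.16 for Mt2 and -0.19 for Mt1.

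Control mice 137 and 182 carried the highest metallothionein levels, with Mt1 at 16.1 and 23.0 CPM and Mt2 at 1.60 and 1.49 CPM. Without this pair the difference from Control was -0.19 in Red and -0.38 in Tangerine for Mt1, and -0.56 and -0.71 for Mt2. The pair was chosen after seeing the data, and leaving out the highest Control livers by itself brings these differences nearer 0. The highest Red and Tangerine livers stayed in that fit. Control mouse 137 also had the lowest Nr3c1 of all livers (50.9 CPM) and the lowest summed Kupffer (64.4 CPM) and endothelial (33.9 CPM) markers of all livers, and their part in the result was not tested. Control mouse 182 had the highest Fkbp5 of all livers, at 128 CPM.

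The sequence before the metallothionein starts holds the short motif at which MTF1 is known to act. In the 250 bases before the gene start given by RefSeq (GRCm38.p6), the core of the metal response element, TGCACNC or TGCGCNC on either strand, occurred 1 time for Mt1 and 3 times for Mt2. Of 32851 such windows, 21.4% held at least 1 match and 1.26% held 3 or more, so the single match of Mt1 is a common count. Of the 16 windows of members, 3 held a match. The capitals mark the matches in the stretches of chr8:94178839-94179078 for Mt1 and chr8:94172368-94172607 for Mt2, both on the plus strand.
Mt1: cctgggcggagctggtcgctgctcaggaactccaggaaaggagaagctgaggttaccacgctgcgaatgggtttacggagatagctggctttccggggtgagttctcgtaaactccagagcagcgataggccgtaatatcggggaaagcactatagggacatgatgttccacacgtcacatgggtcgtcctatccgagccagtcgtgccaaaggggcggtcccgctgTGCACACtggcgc
Mt2: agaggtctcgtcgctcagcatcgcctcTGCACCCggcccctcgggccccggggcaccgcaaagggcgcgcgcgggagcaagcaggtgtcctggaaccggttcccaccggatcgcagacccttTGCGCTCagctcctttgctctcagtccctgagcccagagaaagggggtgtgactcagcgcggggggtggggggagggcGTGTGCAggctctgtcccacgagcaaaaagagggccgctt
Ddit4 also had 1 match before its start, and the windows of the other 5 members with RefSeq windows had none there. With the 50 bases after the start included, Mt1 had 3 matches, Mt2 had 4, and Ddit4 and Sgk1 had 1 each, where 1.97% of windows had 3 or more. A match of letters is not a measure of binding.

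Of the 10 members, 8 had RefSeq windows (16 in all), and Nr3c1 and Zbtb16 were not among them. The core of the glucocorticoid response element, ACANNNTGT, occurred in 5.84% of all windows and in 3 of 16 member windows. These belong to 2 members, Mt1 and Sgk1. Sgk1 has several starts, and the stretches of chr10:21978520-21978578 and chr10:21993679-21993737 (plus strand) are shown for their matches. The words first and second below give only the order of these stretches. Other Sgk1 starts, whose windows held no such match, lie before, between and after them. The E-box CACGTG, which CLOCK and BMAL1 bind, occurred in 6.02% of all windows and in 2 of 16 member windows (Fkbp5 and Sgk1). The Fkbp5 stretch of chr17:28486288-28486343 (minus strand) is shown as an example. Over the 36 livers, r with the clock measure described below was 0.55 for Fkbp5 and -0.28 for Sgk1. It was -0.75 for Cdkn1a, whose windows held no E-box. A link between these letters and the clock measure was not tested.
Sgk1, first start: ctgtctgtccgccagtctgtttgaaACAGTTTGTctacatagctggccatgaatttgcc
Sgk1, second start: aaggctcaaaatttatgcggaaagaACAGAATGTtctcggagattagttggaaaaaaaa
Fkbp5: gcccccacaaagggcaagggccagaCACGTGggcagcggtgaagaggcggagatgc
No such match lay in the windows of Tat, Tsc22d3, Ddit4 or Cdkn1a, which says only that these letters are not in the 250 bases before those starts. None of the matches of the 3 forms overlapped another.

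Of the 45 pairs of members, 17 were correlated over the 36 livers at an adjusted permutation p under 0.05, all with a positive sign. Fkbp5 and Zbtb16 were the closest pair, with Pearson's r of 0.84 and Spearman's rho of 0.80, and r was 0.88 within Control, 0.67 within Red and 0.90 within Tangerine. Tsc22d3 had r = 0.79 with Tat (0.76, 0.84 and 0.77 within the diets) and r = 0.73 with Ddit4 (0.81, 0.78 and 0.67), and Tat had r = 0.72 with Ddit4 (0.81, 0.54 and 0.86). Fkbp5 had r = 0.53 with Tsc22d3, 0.36 with Tat and 0.23 with Ddit4, the last with an adjusted permutation p of 0.242. Zbtb16 had r = 0.59 with Tsc22d3 (rho = 0.62, adjusted permutation p 0.00112), 0.37 with Tat and 0.21 with Ddit4. Within Red, Zbtb16 and Tat had r = 0.57, above the 0.54 of Tat and Ddit4. These correlations share libraries and depth, and differences between them were not tested.

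Mt1 and Mt2 had r = 0.76 over the 36 livers (rho = 0.69), and r = 0.64 without the 2 livers farthest from the median of Mt1. Within the diets r was 0.74 in Control, 0.83 in Red and 0.17 in Tangerine, and without its 2 farthest livers the Control value was 0.16. Mt1 also varied with Fkbp5 (r = 0.56) and Tsc22d3 (r = 0.53). Sgk1 had r = 0.54 with Ddit4 and -0.16 with Fkbp5 (adjusted permutation p 0.460). Nr3c1 had r near 0 with Fkbp5 (0.05), Tsc22d3 (0.05) and Tat (0.04), but r = 0.49 with Sgk1 (adjusted permutation p 0.0099). That pair had rho = 0.30 and r = 0.34 without the 2 farthest livers, and r was 0.79 within Control, 0.10 within Red and 0.58 within Tangerine. The Control value had an adjusted permutation p of 0.052. Without the 2 farthest livers of each diet, r was 0.44 in Control (adjusted permutation p 0.535), -0.22 in Red and 0.53 in Tangerine.

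**Figure D3:**
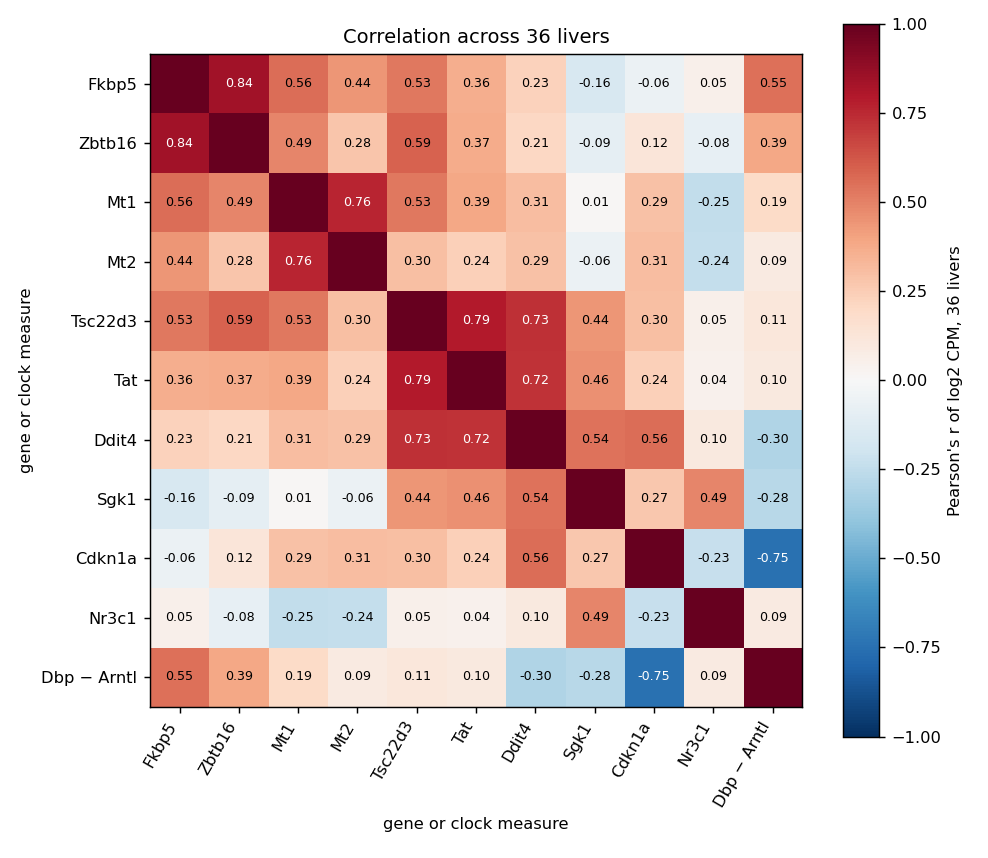
Pearson's r of log2 CPM over the 36 livers between each pair of the 10 genes and with the clock measure (log2 CPM of Dbp minus that of Arntl), from -1 in blue to 1 in red. Fkbp5 with Zbtb16 (0.84) and Tsc22d3 with Tat (0.79) are the highest pairs, and Cdkn1a with the clock measure (-0.75) the lowest value.

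As a molecular measure of the state of the clock, the log2 CPM of Dbp minus that of Arntl was taken in each liver. It could not be set against the hour of collection, which is not given. Arntl encodes BMAL1, a driver of the clock, and Dbp is an output gene that peaks when Arntl is low, so the difference swings widely over a day, and neither is a member. It averaged 2.94 ± 2.70 in Control (SD, n = 12), -0.02 ± 2.07 in Red and 3.84 ± 1.98 in Tangerine. Red was lower than Control by -2.96 (permutation test, adjusted p 0.0163) and Tangerine higher than Red by 3.86 (permutation test, adjusted p 0.00044), while Tangerine and Control differed by 0.90 (permutation test, adjusted p 0.376). The diets therefore differed in this measure beside every Red comparison above, and diet and hour cannot be told apart from the labels.

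Cdkn1a followed the clock measure most closely. Over the 36 livers Pearson's r was -0.75 and Spearman's rho -0.72 (permutation test, p = 1e-05, the smallest the resamples can give, adjusted p 0.0001 over the 10 members), and r was -0.65 without the 2 farthest livers. Within diets r was -0.81 in Control, -0.77 in Tangerine and -0.45 in Red, where the adjusted permutation p was 0.31 and r without the 2 farthest livers was -0.04. Without their own 2 farthest livers, r was -0.66 in Control (adjusted permutation p 0.361) and -0.72 in Tangerine (adjusted permutation p 0.196). Control mouse 188, with the highest Cdkn1a, also had the lowest clock measure of all livers, at -3.59.

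Fkbp5 ran the other way, with r = 0.55 and rho = 0.56 over the 36 livers (adjusted permutation p 0.00285) and r = 0.63 without the 2 farthest livers. Within diets r was 0.81 in Tangerine, 0.66 in Red and 0.29 in Control, with adjusted permutation p of 0.0173, 0.12 and 0.714. Without its 2 farthest livers the Tangerine r was 0.62 (adjusted permutation p 0.279). The Tangerine livers with the highest Fkbp5, mice 215, 216 and 217 (73.6, 88.6 and 62.9 CPM), also had the highest clock measures, of 6.50, 6.89 and 6.34. Zbtb16 had r = 0.39 (rho = 0.39, adjusted permutation p 0.0587), and r = 0.29 without Red mouse 186 and Tangerine mouse 216. Without the 2 farthest livers r was 0.53 (adjusted permutation p 0.00477), and against the first principal component of the clock genes it was 0.43 (adjusted permutation p 0.0331). For the other 7 members r lay between -0.30 (Ddit4) and 0.19 (Mt1), with adjusted permutation p of at least 0.186.

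**Figure D4:**
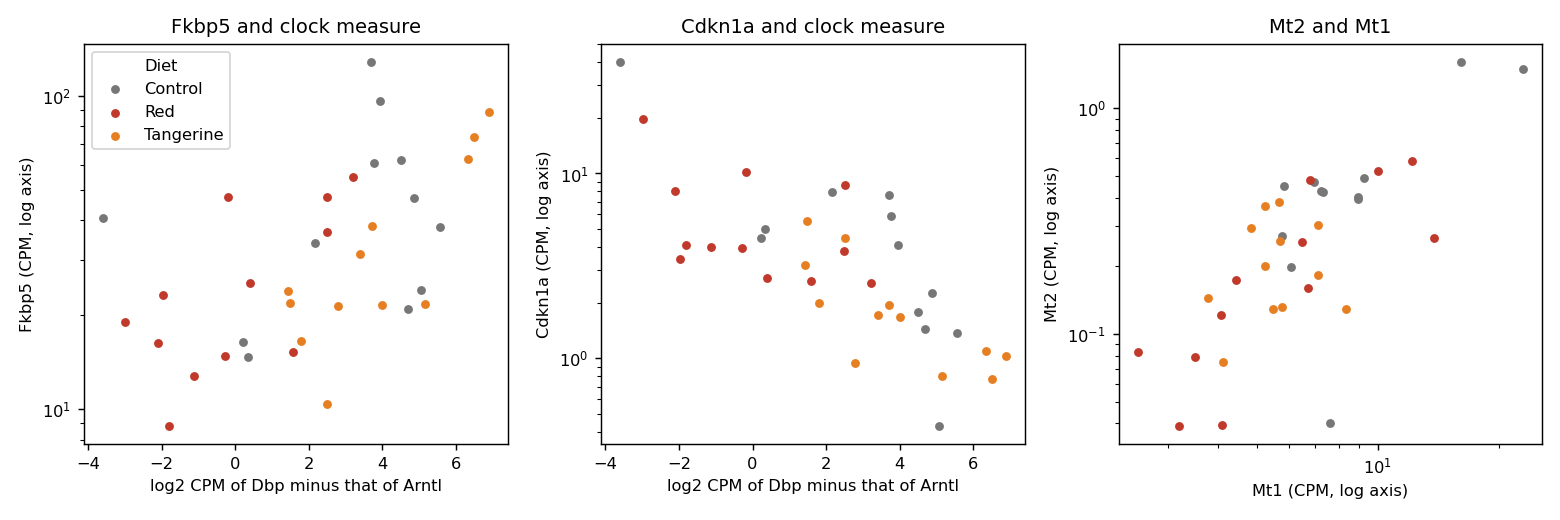
Fkbp5 and Cdkn1a (CPM, logarithmic axis) against the clock measure, and Mt2 against Mt1 (CPM, both axes logarithmic), in 36 livers coloured by diet. Fkbp5 is higher and Cdkn1a lower at high clock measures (r = 0.55 and -0.75), and the pair of Control livers at the upper right of the Mt2 panel are mice 137 and 182.

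Adding the clock measure to the edgeR fit moved the differences of several members. It left the differences from Control of Mt2, Tsc22d3, Tat and Nr3c1 near their size. Cdkn1a in Red against Control went from -0.16 to -0.71, and in Tangerine against Control from -1.72 to -0.93. Sgk1 in Red against Control went from -0.21 to -0.42 and Ddit4 from -0.44 to -0.76, and Ddit4 in Tangerine against Control from -0.44 to -0.25. Fkbp5 in Red against Control went from -0.85 to -0.32, and in Tangerine against Control from -0.43 to -0.79. For Zbtb16 the same differences went from -1.06 to -0.63 and from -0.52 to -0.91. Mt2 was at -1.19 in Red, -1.29 in Tangerine and -1.24 in both (edgeR adjusted p 0.432 for the last), and Mt1 at -0.37 and -0.77 in Red and Tangerine. Tsc22d3 went from -0.599 to -0.64 in Red against Control and from -0.477 to -0.455 in Tangerine against Control. Tat was at -0.298 and -0.25 in those comparisons, and Nr3c1 at -0.0245 and 0.0997. No member passed in this fit.

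The genes whose log2 CPM over the 36 livers was most like that of each member were taken as a description. For Tsc22d3 they were Klf15 (r = 0.85), Nfkbia (0.84) and Gm15890 (0.83), the first 2 being known glucocorticoid targets. For Tat they were Rasgef1b (0.86), Tnfrsf1b (0.85) and Pck1 (0.82), the last of them the gluconeogenic enzyme PEPCK. St3gal5 was the most alike for both Fkbp5 (0.90) and Zbtb16 (0.86), followed by Susd6 (0.87) and Tmc7 (0.86) for Fkbp5 and by Chd9 and Il6ra (both 0.85) for Zbtb16. Cdkn1a was most like Nedd4l (0.81), Pitx3 and Gm45301 (both 0.78), and Ddit4 like Irf2bp2 and Prob1 (both 0.79) and the p53 target Trp53inp1 (0.68). Nr3c1 was most like Cldn12 (0.95), Pnpla8 (0.93) and Atl3 (0.92), and Sgk1 like Gatm and Jak2 (both 0.71) and Msr1 (0.70). The metallothioneins had weaker neighbours, namely Cebpd, Chd9 and Gm42031 (all 0.66) for Mt1 and Npc2 (0.62), Gm16379 (0.61) and Upp1 (0.59) for Mt2.

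Other glucocorticoid-responsive genes were set beside the members as lists. Of 21 further target genes, all tested, 0 passed in any comparison by edgeR. At an unadjusted p under 0.05, 1 was higher and 6 were lower in Red than in Control, where 6.67% of all tested genes were higher and 6.63% lower. In Tangerine against Control 1 was lower, where 2.32% of all genes were higher and 3.16% lower, and in Tangerine against Red 3 were higher and 2 lower, where 6.6% and 8.52% were. The median difference was -0.21 for Red and -0.19 for Tangerine against Control (log2), with 16 and 17 of 21 below 0, and 48.5% and 44.6% of all tested genes were above 0. The list held genes of both signs: Pdk4, which spares glucose by blocking pyruvate dehydrogenase, was 9.93 ± 6.49 CPM in Control, 18.8 ± 11.2 in Red and 8.43 ± 3.85 in Tangerine (SD, n = 12). Its difference between Tangerine and Red was -1.16 (SE 0.33, edgeR adjusted p 0.0590). Got1, an aminotransferase of gluconeogenesis, differed by -0.46 (SE 0.15, edgeR adjusted p 0.163) in Red against Control.

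Of 14 genes of hormone supply and receptor folding, 12 were tested. Serpina6, the plasma carrier of corticosterone, passed for Tangerine against Red, at 302 ± 70.5 against 218 ± 39.9 CPM (SD, n = 12), a difference of 0.47 (log2, SE 0.13, edgeR adjusted p 0.0489). It no longer passed without Tangerine mouse 216 (0.43, edgeR adjusted p 0.113), without Red mouse 186 (0.45, edgeR adjusted p 0.0737) or with the clock measure in the fit (0.09, edgeR adjusted p 0.824). Hsd11b1, which regenerates the active hormone inside hepatocytes, and Srd5a1, which breaks it down, were not tested: both had 0 counts in every library and lie wholly inside the spans of other genes, so nothing follows about their expression.

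Of 15 metal-handling genes 12 were tested and 0 passed in any comparison by edgeR, with at most 3 at an unadjusted p under 0.05. Slc39a4, a zinc importer, was 0.47 higher in Red than in Control (log2, edgeR adjusted p 0.206), and Slc30a1, the zinc exporter that MTF1 controls, was 0.36 higher in Tangerine than in Red (edgeR adjusted p 0.107). Mt3 and Mt4, the metallothioneins of brain and squamous epithelium, had at most 2 and 0 counts. Of 12 acute-phase genes, which inflammation switches on, Fgb (fibrinogen beta chain) was lower in Tangerine than in Red by -0.31 (SE 0.08, edgeR adjusted p 0.0320), and 0 others passed in any comparison. The Fgb call was lost with the clock measure in the fit (-0.20, edgeR adjusted p 0.417), with mouse number as a covariate (edgeR adjusted p 0.0952), with only those diets fitted (0.0518), with no low-count filter (0.0642) and without Tangerine mouse 216 (0.0718).

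The lists of p53 targets and of the ATF4 stress response, other inputs to Cdkn1a and Ddit4, gave no call. Of 9 p53 targets 8 were tested and 0 passed by edgeR, with 1 higher and 1 lower at an unadjusted p under 0.05 in Tangerine against Red. These were Sesn1 at 0.25 (edgeR adjusted p 0.107) and Mdm2 at -0.19 (edgeR adjusted p 0.0807), beside -1.56 for Cdkn1a. Of 8 genes of the ATF4 stress response 7 were tested and 0 passed. The smallest adjusted edgeR p was that of Atf3, at -0.88 (SE 0.24, 0.0921) in Red against Control. Trib3 was 0.65 higher in Tangerine than in Red (edgeR adjusted p 0.147). Of 17 clock genes 15 were tested, and for Tangerine against Red 3 were higher (Nr1d2, Dbp and Tef) and 4 lower (Arntl, Clock, Npas2 and Cry1). Of these 7, 0 passed with mouse number as a covariate (edgeR adjusted p 0.0528 to 0.12) or without Red mouse 186 and Tangerine mouse 216 (0.0528 to 0.133), 2 without Tangerine mouse 216 alone, and 4 without Red mouse 186 alone. With the clock covariate 0 passed, with no low-count filter 2, and with DESeq2 size factors or without Control mice 137 and 182 5. All 7 passed by the DESeq2 test (adjusted p 0.00135 to 0.0227) and by limma-voom. They also did so with surrogate variables, with only those diets fitted, with the filter on mean log2 CPM and without Control mouse 188. In the other comparisons 0 clock genes passed by edgeR, with 12 at an unadjusted p under 0.05 in Red against Control and 0 in Tangerine against Control.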

How the data were processed

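Liver total RNA from 36 mice was made into libraries with a NEXTflex Rapid Directional kit, per the labels' protocols. The authors deposited raw read counts per gene, with no normalization. FastQC, Trimmomatic, edgeR and the build GRCm38.p6 are named in the submitters' processing notes. The aligner, the counting program and how reads in overlapping genes were counted are not given in the sources used here.

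Columns were matched to mice by the column name in each label. Symbols and positions came from GENCODE M21 (GRCm38), which named 53620 of 53715 identifiers. The others held 0.00177% of counts. The smallest chi-square per degree of freedom between libraries was 13.7, so all were kept. Each library carries its own mouse number, so p-values measure the spread between mice.

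Genes passed filterByExpr of edgeR 4.0.16 by diet (count 10, total 15). The quasi-likelihood F test (robust, TMM scaling) was fitted to the counts of all 36 libraries, with 3 diets sharing 1 dispersion estimate, and checked on simulated data. Log2 CPM used a prior count of 2, and correlations a two-sided permutation test with 100000 resamples (scipy 1.17.1). Tested alternatives were DESeq2 1.42.0, limma 3.58.1, surrogate variables (sva 3.50.0), other filters and scalings, covariates and libraries left out, the last chosen after seeing the data. Named genes are all 10 members, the 3 genes most correlated with each, and from each list every gene past the threshold, or where none passed the 2 with the smallest p. Members and lists were chosen with earlier results of these data known.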

Additional observations from a re-analysis of the deposited data

How the results depend on the processing

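Of 543 values of the members under other settings, 539 stayed on their side of the threshold and 4 newly passed. The 539 include Mt2 in Red against Control by DESeq2, which had no adjusted p. Since no member was called, no call could reverse, but 19 fitted differences turned sign, 8 of them with surrogate variables, 3 with the clock covariate (Fkbp5 in Tangerine against Red at -0.47) and 3 with limma-voom (Cdkn1a in Red against Control at 0.51). With limma-voom and sample weights 1 member (Mt2, -1.15, adjusted p 0.0439) passed for Red against Control. For Tangerine against Red 1 member (Cdkn1a) passed with surrogate variables, with only the groups compared and without Control mouse 188. That mouse is in neither of the diets compared there. Members correlated with the clock measure numbered 2 over all livers, 1 within Control, 0 within Red and 2 within Tangerine, and 3 against the first principal component of the clock genes. Correlated pairs numbered 17 over all livers and 3, 5 and 2 within Control, Red and Tangerine, where fewer livers enter each test. With 1 letter of the metal response core left free (TGCNCNC), 6 members had a match in place of 3. Among clock genes in Tangerine against Red, the clock covariate, which is built from Dbp and Arntl, turned the sign of Arntl (0.0379), Cry1 (0.0103) and Tef (-0.0384).

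Over all tested genes, Red against Control had 21 calls and from 4 (clock covariate) to 1482 (limma-voom) under other settings. Tangerine against Control had 2, and from 1 (mouse number as covariate) to 63 (surrogate variables). Tangerine against Red had 241, and from 0 (clock covariate) to 819 (surrogate variables), and both tomato diets 1, and from 1 to 48 (surrogate variables). DESeq2 gave 167, 7, 421 and 12. Without Red mouse 186 there were 54 calls for Red against Control and 2 for both diets, and without Tangerine mouse 216 there were 32 in the first of these and 89 between the tomato diets. With no low-count filter there were 136 for Tangerine against Red and 6 for both diets, and 59 for Red against Control when genes under a mean of 1 (log2 CPM) were dropped. The cause was not tested. Serpina6 kept its call in 7 of 14 settings and Fgb in 9 of 14. Surrogate variables numbered 5 in the fit, of 9 estimated. No paired analysis was possible because the diets share no mouse numbers. Depth limits Mt2, with a median of 7 counts per library, and least of all Tat, with 49506.5.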
